A study of Saccharomyces cerevisiae with 18 samples.

Results

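This section describes the yeast strain that makes histone H4 without residues 2 to 26 of its amino-terminal tail (strain NSY438, 2 arrays), set against wild type (strain NSY429, 3 arrays). These 5 arrays were chosen by their sample labels out of 18 arrays of Saccharomyces cerevisiae, and all 9275 probe sets that are not array controls were read on each. Total RNA had been hybridised to one-colour Affymetrix YG_S98 arrays, which carry short-oligonucleotide probe sets for the yeast genome. Where it helps to show a difference, an H4 in which glutamine replaced lysines 5, 8, 12 and 16 (strain RMY491, 2 arrays) and a deletion of histone H3 residues 1 to 28 (strain NSY458, 2 arrays) were used as further references. The other groups of the series were an H3 lysine substitution, a deletion of the histone deacetylase gene RPD3, and 2 double mutants. The sources used here give neither mating type, growth medium and growth phase nor other alleles shared by the strains, and do not say if the arrays of 1 strain stand for separate cultures or clones.

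The amino-terminal tail of histone H4 projects from the nucleosome and carries lysines that are acetylated and deacetylated. In budding yeast it is also a docking surface for Sir3, a protein of the silencing complex that keeps the spare mating-type genes at HML and HMR and many genes near telomeres off. A cell that expresses a and alpha mating-type genes together forms the a1-alpha2 repressor, which turns off the haploid-specific genes and the activator of the alpha-specific genes, as in a diploid. The tail also binds acetyltransferases, remodellers and bromodomain proteins that act at many promoters.

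Several labels bear on all results. The array run headers named another strain than the label on 3 of 18 arrays, among them H4 tail array 2 and H3 tail array 2, and the header of H4 tail array 1 was without lot or description. Both H4 tail arrays correlated better with each other (r = 0.982 over 7851 probe sets) than either did with the next group (0.96), and OLI1 read 2.7 on both. This likeness does not show which strain the 2 arrays carried. The 3 wild-type arrays correlated at 0.949 to 0.959 with each other, and H4 tail with wild-type arrays at 0.876 to 0.929. No sampling day held arrays of both strains. The chip lot of H4 tail array 2 held no wild-type array, and that of H4 tail array 1 is not known. H4 tail array 2 and wild-type arrays 2 and 3 were each the only array of their day. A fit with the sampling day therefore compares H4 tail array 1 with wild-type array 1, linked through arrays of other strains. Wild-type array 3 came from a later year and was the array whose header named an amplification kit. The array's actin 3' to 5' signal ratio, a measure of RNA integrity and labelling, was 1.5 on both H4 tail arrays and 1.37 to 1.41 in wild type.

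Signals are intensities in arbitrary units, scaled to a common trimmed mean per array. A floor of 140.2, the 25th percentile of all signals, was applied before the test, so that a fold against a group wholly at the floor is given as "at least". Changes are log2 differences with their standard error from limma, fitted over all 18 arrays, and a probe set or gene is called at a Benjamini-Hochberg adjusted p under 0.05. Probe sets do not give levels that can be compared between genes. The arrays may be technical replicates, so the p-values measure the spread between arrays. Their number limits the precision of every value.

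Deleting the H4 tail was accompanied by called differences in 2145 of 7851 tested probe sets. Of these, 963 were higher (12.3%) and 1182 lower (15.1%) than in wild type, and 527 and 630 differed by at least 2-fold. Among the 5447 genes that could be read singly, 685 were higher (12.6%) and 1034 lower (19%), and the median change of all these genes was -0.12. These shares are the background for each gene list below. The counts rest on the spread shared by all 18 arrays: with the 5 arrays alone, 217 probe sets were called (134 higher, 83 lower), although 2291 had an unadjusted p under 0.05. With the sampling day as a term in the fit 403 were called, 337 of them among the 2145.

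HMRA1, the a1 repressor gene of the silent locus HMR, read 974.8 and 462.2 in the H4 tail deletion, against 145.9, 64.0 and 48.2 in wild type. Both mutant arrays were above all wild-type arrays, of which 2 were at the floor. The change was 2.24 ± 0.23 (4.72-fold; adjusted p = 3.82e-05), and it stayed called without H4 tail array 1 or 2. With the 5 arrays alone it was not called. Its probe set may also pick up related transcripts, and the MAT, HML and other HMR genes have no probe set of their own and were not read.

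The alpha-specific genes, which the alpha1 activator turns on in alpha cells, all fell: 5 of 5 were lower, with a median of -3.66. MF(ALPHA)1, the main gene for the alpha-factor pheromone, read 700.1 and 602.8 in the H4 tail deletion, against 19530, 23840 and 40152 in wild type. MF(ALPHA)2, the second pheromone gene, read 257.2 and 261.7, against 12061, 10551 and 17896. For both genes every wild-type array was far above both mutant arrays, with changes of -5.35 ± 0.29 (adjusted p = 8.44e-08) and -5.66 ± 0.48 (adjusted p = 8.18e-06). SAG1, the alpha-agglutinin of the cell surface, fell by 3.66 ± 0.32 on the log2 scale, and AFB1, which encodes a blocker of a-factor, fell by 3.04 ± 0.19. STE3, the receptor for a-factor, read 335.9 and 457.9 in the H4 tail deletion, against 2612, 2659 and 2040 in wild type (-2.63 ± 0.22).

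Haploid-specific genes fell in 11 of 11 cases, with a median of -2.40 (-2.40 in each H4 tail array taken alone). FAR1, which arrests the cell cycle in response to pheromone, read 104.3 and 140.8 in the H4 tail deletion, against 5049, 2691 and 4050 in wild type. One mutant array was under the floor and the other just above it, and the change was -4.76 ± 0.26 (27.1-fold; adjusted p = 8.44e-08). STE18, STE4 and GPA1 encode the subunits of the G protein coupled to the pheromone receptors. STE18 was at the floor on both mutant arrays (50.2 and 78.2), against 1419, 1210 and 812.9 in wild type, at least 7.97-fold lower. STE4 read 664.9 and 657.1 in the H4 tail deletion, against 3781, 3864 and 2301 in wild type (-2.29 ± 0.22), and GPA1 was at least 5.29-fold lower.

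Among the other haploid-specific genes, FUS3, the mitogen-activated kinase of the mating pathway, was at least 8.08-fold lower, with both mutant arrays at the floor. RME1, a repressor of meiotic entry, read 50.7 and 152.9 in the H4 tail deletion, against 1849, 423.9 and 1498 in wild type, with wild-type array 2 lowest (-2.85 ± 0.46). RDH54, a recombination gene, fell by 2.52 ± 0.28, and STE5, the scaffold of the mating kinases, by 1.42 ± 0.20. AXL1, which encodes the protease that processes a-factor, fell by 1.04 ± 0.22, while HO, the endonuclease of mating-type switching, was at least 2.62-fold lower and NEJ1, a regulator of end joining, at least 1.55-fold lower. HO and NEJ1 were the 2 members not called without H4 tail array 1 or 2 (adjusted p from 0.0736 to 0.139), and NEJ1 also not without wild-type array 1 or 2 (0.0892 and 0.0629). With the sampling day in the fit, which rests on 1 array of each strain, the medians were -2.90 for alpha-specific and -2.05 for haploid-specific genes. With the 5 arrays alone, 5 alpha-specific and 6 haploid-specific genes were called lower. In bulk RNA, fewer cells that express these genes and less RNA per cell cannot be told apart.

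**Figure D1:**
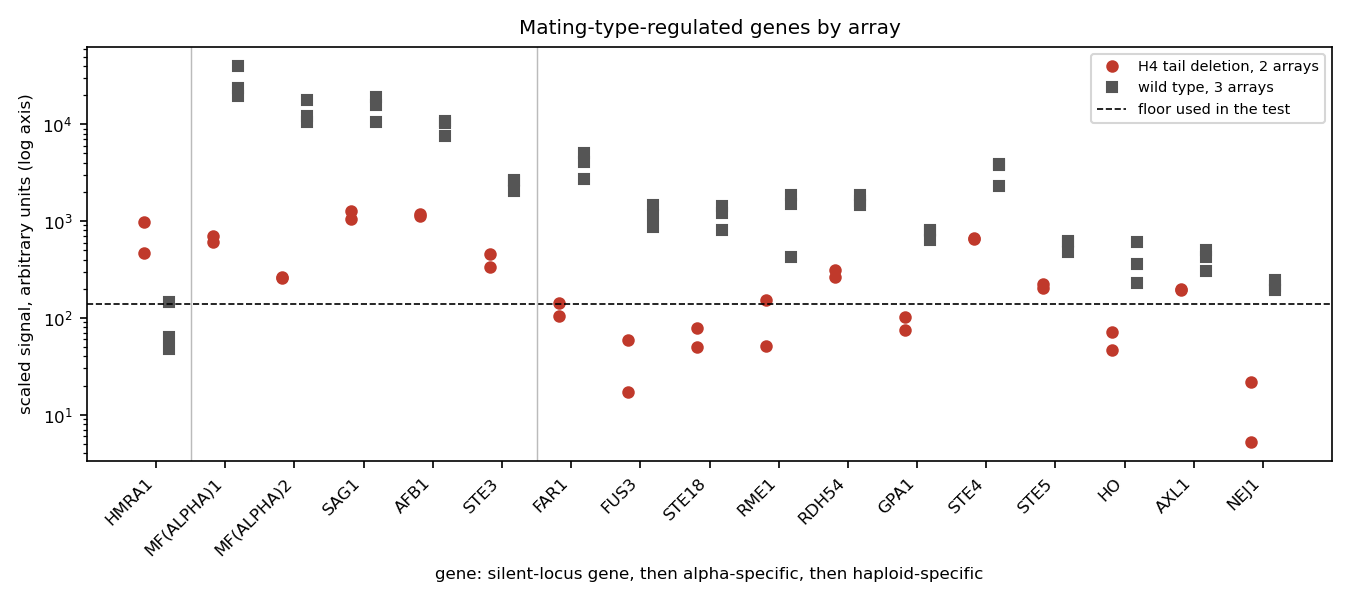
Scaled signal (log axis) of HMRA1, the 5 alpha-specific and the 11 haploid-specific genes on each array. Circles are the 2 H4 tail deletion arrays, squares the 3 wild-type arrays and the dashed line the floor of 140.2. HMRA1 is higher on both mutant arrays, and for each of the other 16 genes both mutant arrays lie below all 3 wild-type arrays.

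The a-specific genes, which alpha cells keep off, gave 1 call among 4 tested genes. BAR1, the protease that degrades alpha-factor, was at the floor on both H4 tail arrays, against 306.1, 462.8 and 219.4 in wild type (at least 2.24-fold lower). MFA1 and MFA2, the a-factor genes, had changes of 0.48 ± 0.38 and -0.07 ± 0.29. STE2, the alpha-factor receptor, was below the floor on all arrays of both strains.

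Pheromone response genes were lower in 9 of 25 cases and higher in 1, with a median of -0.50. The lower ones were led by AGA1, an agglutinin anchor, which read 778.6 and 862.8 in the H4 tail deletion, against 4506, 6155 and 8536 in wild type (-2.92 ± 0.31; adjusted p = 4.86e-05). Low AGA1 was not limited to this strain, as the H4 lysine substitution read 1957.3 and 1770.5 and the H3 tail deletion 937.9 and 2009.6. FUS1, a cell fusion gene, fell by 2.70 ± 0.28, and SST2, which shuts off the G protein, by 2.49 ± 0.26. The transcription factor gene KAR4 fell by 2.10 ± 0.34 and the mating adhesin gene FIG2 by 1.68 ± 0.34. STE11, a kinase gene that is shared with other pathways, was the member that rose (1.14 ± 0.24). With the sampling day in the fit, 2 pheromone response genes were called lower and 0 higher, and 3 and 0 with the 5 arrays alone.

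The mitochondrial genome was measured by 18 probe sets of its own, of which 7 passed the filter. OLI1, the ATP synthase ring subunit encoded there, read 2.7 on both H4 tail arrays, against 22147, 22130 and 21422 in wild type. It was at least 156-fold lower (adjusted p = 4.89e-11), and the other 13 arrays of the series ranged from 12787 to 25771. COX1, the catalytic subunit of cytochrome oxidase, read 923.5 and 755.2 in the H4 tail deletion, against 3503, 4740 and 6099 in wild type (-2.48 ± 0.62; adjusted p = 0.00971). Low COX1 was not limited to this strain, as the RPD3 deletion read 1440 and 690.1. The COX1 call was lost without H4 tail array 2 (-2.34, adjusted p = 0.0814).

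ATP6, another mitochondrially encoded ATP synthase subunit, read 3.6 and 4.6 in the H4 tail deletion, against 123.0, 495.0 and 322.9 in wild type. Both mutant arrays and 1 wild-type array were under the floor, and the bound of at least 2.01-fold lower lost its call without H4 tail array 1 or 2 (adjusted p = 0.151 and 0.163) and without wild-type array 2 or 3 (0.131 and 0.0829). ATP6 was also under the floor on all arrays of the H3 and H4 lysine substitutions (5.6 to 98.5). The RPD3 and H4 lysine double mutant read 79.6 and 88.8. COX3, by contrast, read 343.9 and 618.3 in the H4 tail deletion against 233.4, 519.2 and 139.7 in wild type, with overlapping arrays and no call (adjusted p = 0.177). COB, the cytochrome b gene, read 8.8 and 4.0 in the mutant, against 134.1, 669.2 and 109.2 in wild type, which is at the floor on 4 of 5 arrays. The remaining probe sets were at or close to the floor in both strains and give no order.

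Nuclear genes of the tricarboxylic acid cycle and the respiratory chain were lower in 18 of 45 cases and higher in 3, with a median of -0.48. With the 5 arrays alone 0 were lower and 0 higher. The lower members were subunits of cytochrome oxidase, the ATP synthase and the cytochrome bc1 complex. COX5A, the oxidase subunit of aerobic cells, read 1925 and 1217 in the H4 tail deletion, against 8212, 4392 and 4601 in wild type (-1.84 ± 0.24; adjusted p = 0.000174). The oxidase subunit gene COX4 fell by 1.46 ± 0.30, and the ATP synthase subunit genes ATP20, ATP16 and ATP18 fell by 1.8 ± 0.30, 1.31 ± 0.30 and 1.25 ± 0.22. Of these 5 genes, COX4 and ATP16 lost their calls without H4 tail array 2 (adjusted p = 0.064 and 0.0602), and without that array 5 of the 45 genes were lower and 1 higher. Without wild-type array 1 the count was 11 lower and 7 higher, and without wild-type array 3 it was 21 and 5. H4 tail array 2 was the lower of the mutant arrays for each of the 5.

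The 3 members that rose belong to the cycle, not the chain. CIT1, the mitochondrial citrate synthase, read 6151 and 11228 in the H4 tail deletion, against 3467, 1497 and 2451 in wild type (1.83 ± 0.35). IDH1, a subunit of isocitrate dehydrogenase, rose by 1.13 ± 0.28, a call that was lost without H4 tail array 2 (0.57, adjusted p = 0.166). MDH1, the mitochondrial malate dehydrogenase, rose by 1.05 ± 0.36, with no call without H4 tail array 1 or 2 (adjusted p = 0.0872 and 0.266) or wild-type array 2 (0.108). COX5B, the alternative to COX5A that is used when oxygen is scarce, read 3552 and 2916 in the H4 tail deletion, against 882.9, 299.2 and 610.1 in wild type (2.56 ± 0.36; adjusted p = 0.000238). COX5A and COX5B thus differed from wild type in opposite directions.

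The retrograde response is the nuclear programme switched on when mitochondria fail, and its best-known target is CIT2, the peroxisomal citrate synthase. CIT2 read 4313 and 7815 in the H4 tail deletion, against 766.6, 757.2 and 492.9 in wild type (3.14 ± 0.44; adjusted p = 0.000258), and it kept its call under all 18 alternative settings. High CIT2 was not limited to this strain. It read 3230, 2930 and 2441 in the H3 lysine substitution and 2084.5 and 8844.5 in the RPD3 and H3 tail double mutant. OLI1 read 13392 or more on all arrays of those strains, and a link between CIT2 and OLI1 was not tested. Of 18 retrograde genes 4 rose and 1 fell, with a median of 0.28, and 2 and 0 were called without H4 tail array 2. DLD3, a lactate dehydrogenase gene of this group, rose by 2.15 ± 0.66 but read 1182 and 3132 on the mutant arrays, and its call was lost without H4 tail array 2 (adjusted p = 0.274), wild-type array 1 (0.0604) or wild-type array 3 (0.0631). RTG2, the upstream sensor, fell by 0.74 ± 0.24, a call that was lost on leaving out any 1 of the 5 arrays other than wild-type array 3 (adjusted p from 0.0746 to 0.228).

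**Figure D2:**
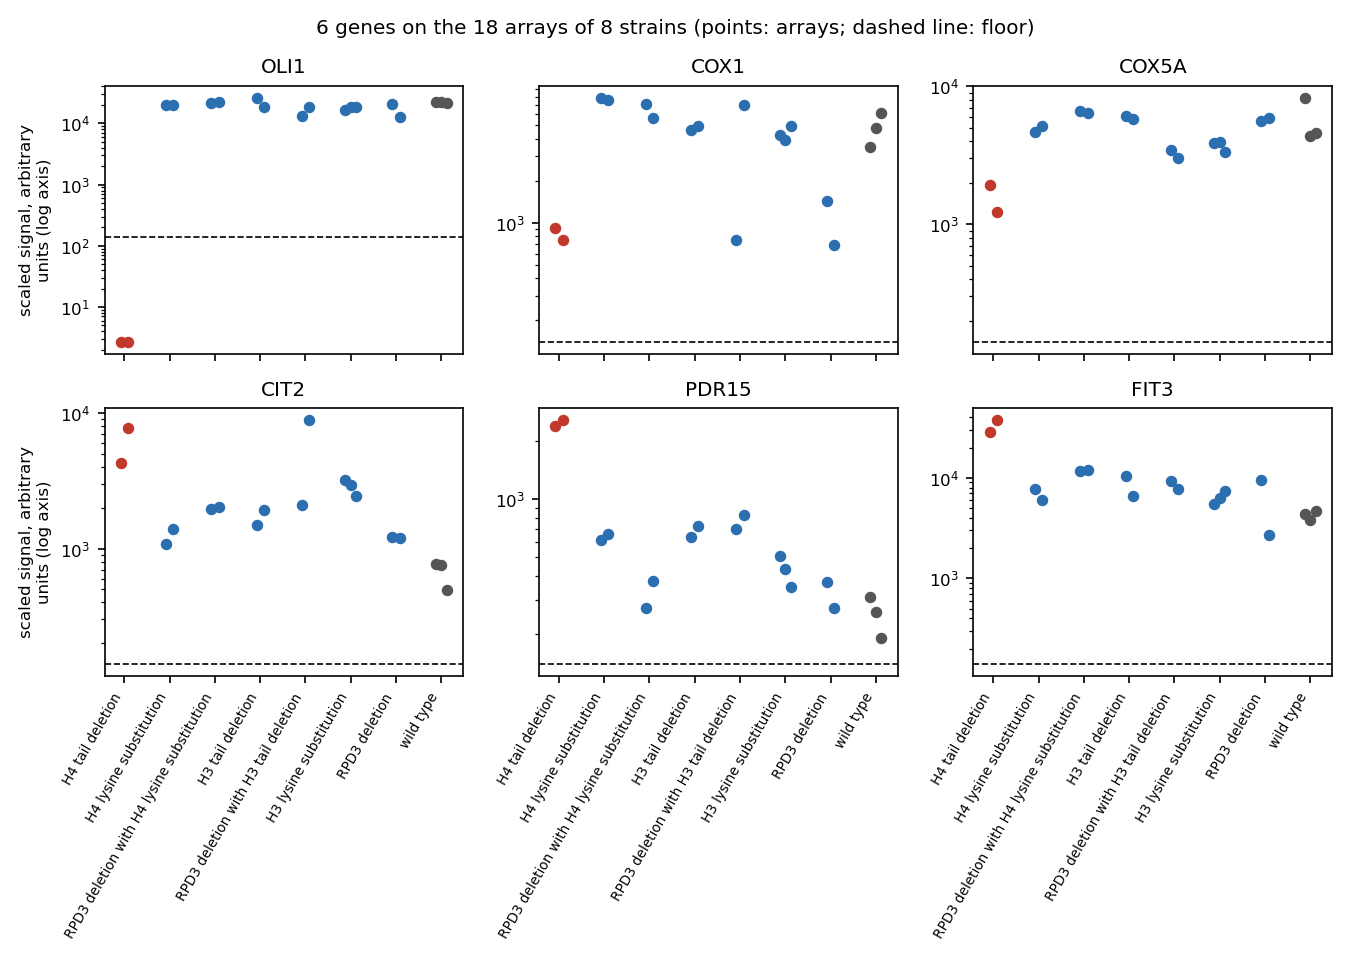
Scaled signal (log axis) of 6 genes on the 18 arrays, 1 panel per gene, with the H4 tail deletion at the left and wild type at the right of each panel. Points are arrays and the dashed line is the floor. OLI1 is at 2.7 on both H4 tail arrays and at 12787 or more on the other 16. PDR15 and FIT3 are higher on both H4 tail arrays than on any other array, while CIT2 is highest on 1 array of a double mutant and COX1 is also low in the RPD3 deletion.

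Genes of pleiotropic drug resistance, which encode membrane pumps and their regulators and answer to mitochondrial defects through PDR3, were gathered into a list after their values had been seen. Of 25, 7 were higher and 3 lower, with a median of 0.26, and 1 was lower without H4 tail array 1 or 2. PDR15, a multidrug transporter, read 2386 and 2563 in the H4 tail deletion, against 311.1, 259.9 and 191.4 in wild type (3.31 ± 0.25; adjusted p = 3.21e-06). VMR1, a vacuolar transporter, read 1292 and 1739 against 211.8, 255.0 and 172.6 (2.83 ± 0.30), and RSB1, a sphingoid base exporter, rose by 2.23 ± 0.27. PDR3 itself rose by 0.99 ± 0.20, and TPO4, a polyamine exporter, by 1.82 ± 0.29. The main pump gene PDR5 had a change of 0.19 ± 0.38 with overlapping arrays. AQR1, an exporter of acids and amino acids, fell by 2.36 ± 0.31.

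Iron regulon genes, which Aft1 turns on when iron is short, were higher in 16 of 30 cases and lower in 1, with a median of 0.72. FIT3, a cell wall mannoprotein that retains iron carriers, read 28362 and 37256 in the H4 tail deletion, against 4347, 3781 and 4673 in wild type (2.93 ± 0.38; adjusted p = 0.000153). TIS11, which degrades messages of iron-using proteins, read 708.9 and 956.6 on the mutant arrays and was at the floor on all wild-type arrays, at least 5.87-fold higher (adjusted p = 8e-08). FIT2 rose by 2.48 ± 0.34 and the siderophore transporter gene ARN1 by 1.94 ± 0.30.

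FET3, the ferroxidase of high-affinity uptake, read 5660 and 11411 in the H4 tail deletion, against 806.5, 6188 and 820.7 in wild type. Wild-type array 2 thus overlapped the mutant, and the change of 2.33 ± 0.64 lost its call without H4 tail array 2 (adjusted p = 0.171) or wild-type array 1 (0.0584). FRE4, a siderophore reductase gene, was the member that fell (-1.02 ± 0.30), with no call without H4 tail array 1 or 2 (adjusted p = 0.0618 and 0.152). Iron regulon calls numbered 8 higher and 0 lower without H4 tail array 2, and 5 and 0 with the sampling day in the fit.

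Mitochondrial ribosomal protein genes, which are encoded in the nucleus, were higher in 17 of 64 cases and lower in 0, with a median of 0.40. The largest rises were in MRPL31 (1.27 ± 0.28, with an adjusted p of 0.0519 without H4 tail array 2) and MRPS17 (1.24 ± 0.25), which encode proteins of the large and the small subunit. MRPL40 read 1647 and 1833 in the H4 tail deletion, against 820.2, 742.1 and 912.9 in wild type (1.08 ± 0.23). The differences were small and the count followed single arrays: 6 were called without H4 tail array 1, 8 without H4 tail array 2, 11 without wild-type array 2 and 0 with the sampling day in the fit.

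Ribosome biogenesis genes, which encode the nucleolar factors that process ribosomal RNA and assemble subunits, fell in 94 of 96 cases. Their median was -1.28 (-1.29 and -1.27 on H4 tail arrays 1 and 2), their changes ran from -2.26 to -0.52, and for all 96 both mutant arrays lay below all 3 wild-type arrays. Across all genes the arrays of the 2 strains did not overlap, with the mutant lower, in 32.7%. NIP7, needed for the large subunit, read 528.1 and 524.1 in the H4 tail deletion, against 2346, 3666 and 1498 in wild type (-2.16 ± 0.47; adjusted p = 0.00445). CGR1 fell by 2.18 ± 0.36 and RRP36 by 2.06 ± 0.37, while SSF2 was at least 4.80-fold lower, with both mutant arrays at the floor. RRP15 fell by 2.04 ± 0.53, a call lost without H4 tail array 1 (adjusted p = 0.0836) or 2 (0.0609).

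The summed signal of the 96 genes was 147420 and 147559 on the H4 tail arrays, against 282981, 405528 and 288558 in wild type. Wild-type array 2 was thus the highest of the 3, and the sums of all 3 exceeded those of both mutant arrays. Between 74 and 79 of these genes were called when 1 H4 tail array was left out, 22 with the sampling day in the fit (median -1.11) and 7 with the 5 arrays alone.

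RNA polymerase I, which transcribes the ribosomal DNA, had 10 of 16 genes lower and 0 higher, with a median of -0.92. The number lower was 8 without wild-type array 1 or 2, 12 without wild-type array 3 and 3 with the 5 arrays alone. Without H4 tail array 1 or 2 the median was -1.02 or -0.93. RPC40, a subunit shared with polymerase III, read 902.9 and 888.8 in the H4 tail deletion, against 2659, 3203 and 2187 in wild type (-1.56 ± 0.20; adjusted p = 0.00016). RPA12, RPA34, RPA43 and RPA49, all subunits of the enzyme, fell by 1.32 to 1.34. Cytosolic ribosomal protein genes differed less: 15 of 79 were lower, near the 19% of all genes that were lower, and 0 higher. Their median was -0.22, against -0.12 for all genes. The largest falls that held without each single array were RPS22B (-1.83 ± 0.22) and RPL22B (-1.52 ± 0.22). This count was 27 lower and 1 higher after quantile normalization and 8 lower and 1 higher after median centring. It was 9 lower without H4 tail array 1 and 5 without array 2.

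General stress genes, the targets of the Msn2 and Msn4 activators, were higher in 30 of 45 cases and lower in 0, with a median of 1.36. RTC3, a protein linked to telomere capping, read 4146 and 3451 in the H4 tail deletion, against 385.2, 120.9 and 321.0 in wild type (3.87 ± 0.35; adjusted p = 1.69e-05). TMA10, a ribosome-associated protein, rose by 3.49 ± 0.45 and the vacuolar aminopeptidase gene APE1 by 3.43 ± 0.39. PNC1, a nicotinamidase that is known to modulate the silencing enzyme Sir2, read 16994 and 13372 in the H4 tail deletion, against 2282, 584.3 and 3415 in wild type (3.19 ± 0.50). TFS1, an inhibitor of carboxypeptidase Y, rose by 2.69 ± 0.33.

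Wild-type array 2 was the lowest wild-type array for each of these 5 genes, and over the list it lay 0.53 below the wild-type mean while arrays 1 and 3 lay 0.34 and 0.12 above it. Both mutant arrays were above all 3 wild-type arrays for 35 of the 45 genes, and for 21.2% of all genes. The summed signal of the list was 264911 and 227963 on the H4 tail arrays, against 106256, 55917 and 110603 in wild type. With H4 tail array 1 left out 19 genes were called, with the sampling day in the fit 15 higher and 1 lower, and with the 5 arrays alone 4.

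The genes of glycogen and trehalose, the reserve carbohydrates, were higher in 15 of 20 cases and lower in 0, with a median of 1.54. PGM2, the main phosphoglucomutase, read 7004 and 3328 in the H4 tail deletion, against 793.5, 364.3 and 459.1 in wild type (3.24 ± 0.32; adjusted p = 2.76e-05). TSL1, a subunit of the trehalose synthase, read 4895 and 4510 against 1148, 215.4 and 528.3 (3.21 ± 0.52). The enzymes that build and break down glycogen rose together, with GSY2, a glycogen synthase, at 2.76 ± 0.48 and GPH1, the phosphorylase, at 2.94 ± 0.52. TPS2, the trehalose phosphatase, rose by 2.29 ± 0.26. With the 5 arrays alone 0 of the 20 were called. The median was 1.48 with the sampling day in the fit and 1.45 with the chip lot, a fit that leaves out H4 tail array 1.

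Among 17 tested genes of hexose transport and hexokinases 5 rose and 0 fell, with a median of 0.68. With the 5 arrays alone 0 were called, and without H4 tail array 1 the median was 0.46. HXK1, the hexokinase that is repressed by glucose, read 18922 and 10718 in the H4 tail deletion, against 3402, 275.2 and 2625 in wild type (3.40 ± 0.73; adjusted p = 0.00398). Wild-type array 2 was far below the other wild-type arrays, and without H4 tail array 1 the call was lost (2.99, adjusted p = 0.0521). GLK1, the glucokinase, rose by 2.38 ± 0.38 and HXT5, a transporter of slow-growing cells, by 1.40 ± 0.26. HXT4, a glucose transporter, read 7734 and 2890 against 1428, 352.2 and 931.3 and was not called without H4 tail array 1 (adjusted p = 0.0582).

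Gluconeogenic and glucose-repressed genes split, with 8 of 28 higher, 2 lower and a median of 0.35. Without H4 tail array 1 the count was 4 higher and 1 lower, and with the sampling day in the fit it was 0 and 3. The invertase gene SUC2 rose by 1.90 ± 0.33, the acetyl-coenzyme A synthetase gene ACS1 by 1.78 ± 0.31 and FOX2, of peroxisomal fat oxidation, by 1.39 ± 0.23. ALD6, the cytosolic aldehyde dehydrogenase, read 3103 and 3913 in the H4 tail deletion, against 12730, 15841 and 16909 in wild type (-2.11 ± 0.36; adjusted p = 0.000933). PCK1, the key enzyme of gluconeogenesis, read 770.4 and 947.0 against 4369, 2060 and 1322 (-1.42 ± 0.41), a call that was lost without H4 tail array 1 or 2 (adjusted p = 0.133 and 0.0739) or wild-type array 1 (0.0566). Of 7 galactose genes GCY1, a reductase, rose (1.68 ± 0.17), and the others were not called.

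**Figure D3:**
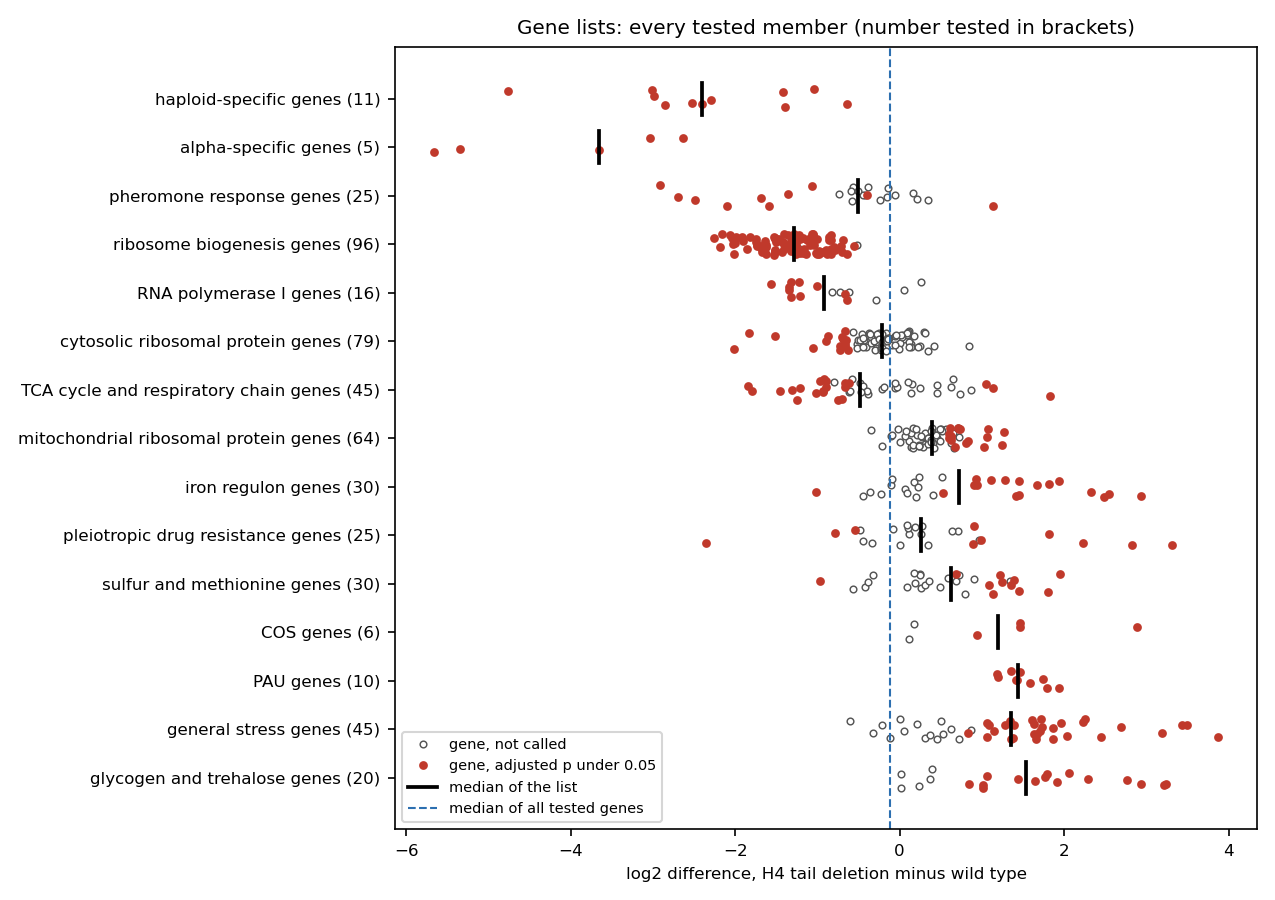
Change of every tested gene (log2 difference, H4 tail deletion minus wild type) in 15 gene lists, with the number tested in brackets. Filled points are called genes, open points genes not called, black bars list medians and the dashed line the median of all genes (-0.12). Haploid-specific, alpha-specific and ribosome biogenesis genes lie to the left, and PAU, stress, glycogen and trehalose genes to the right.

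Genes close to chromosome ends, which Sir proteins and other factors keep low in many strains, were ranked by counting annotated protein-coding genes inwards from each end. Of the 5 genes nearest each end, 57 of 160 had a tested probe set of their own, and 26 of these (45.6%) were higher and 0 lower, with a median of 0.53. In ranks 6 to 10, 26 of 124 were higher (21%) and 10 lower (8.06%), and in ranks 11 to 20, 52 of 281 were higher (18.5%) and 42 lower (14.9%). Of 4823 genes farther in, 569 were higher (11.8%) and 976 lower (20.2%). Silent end genes that stay below the floor are not among the genes tested, so these shares describe measured genes only. The rise was not particular to this strain. Against the H4 lysine substitution 3 of the 57 outermost genes were higher and 1 lower (median 0.01, beside 0.07 for all genes). Against the H3 tail deletion 4 were higher and 1 lower (0.08, beside -0.23), and 8 and 0 after median centring (0.3).

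Part of the outermost group was made of PAU and COS genes, 2 subtelomeric families. Without them 17 of 46 genes in ranks 1 to 5 were higher (37%) and 0 lower. The count of 26 was 18 without H4 tail array 1, 19 without array 2, 20 without wild-type array 2 and 7 with the sampling day in the fit. HXK1, described above, and ARN2, a siderophore transporter (1.67 ± 0.25), are end genes that other lists also hold. YFL067W, of unknown function, read 2449 and 2572 in the H4 tail deletion, against 482.6, 329.6 and 854.3 in wild type (2.29 ± 0.47; adjusted p = 0.00285), on a probe set that may also pick up related transcripts.

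**Figure D4:**
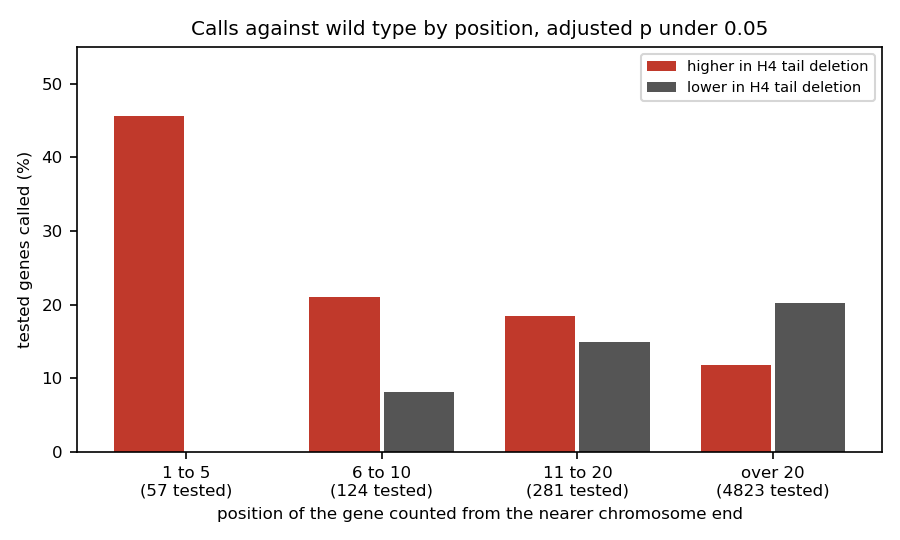
Share of tested genes called higher or lower (%) in the H4 tail deletion than in wild type, by position of the gene counted from the nearer chromosome end. The share higher is 45.6% in ranks 1 to 5 and 11.8% beyond rank 20, and the share lower is 0 and 20.2%.

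PAU genes, a family of cell wall mannoproteins with near-identical copies whose signals cannot be fully told apart, rose in 10 of 10 tested cases, with a median of 1.44. PAU3 read 1772 and 2576 in the H4 tail deletion, against 711.9, 398.9 and 602.2 in wild type (1.94 ± 0.22; adjusted p = 8.07e-05). PAU23 and PAU17 rose by 1.79 ± 0.20 and 1.75 ± 0.26. All 10 kept their calls without H4 tail array 1 or 2, and 3 with the sampling day in the fit.

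COS genes, a subtelomeric family of endosomal membrane proteins, rose in 4 of 6 cases, with a median of 1.20. COS8 read 5843 and 5074 in the H4 tail deletion, against 740.6, 661.1 and 815.7 in wild type (2.89 ± 0.16; adjusted p = 8.44e-08), with a gap between the strains far beyond the spread within either. COS4 and COS7 rose by 1.47 ± 0.24 and 1.46 ± 0.26. COS6 rose by 0.94 ± 0.32 and lost its call without H4 tail array 1 or 2 (adjusted p = 0.317 and 0.0602) or wild-type array 2 or 3 (0.122 and 0.0691). Of 18 DAN, TIR and hypoxic genes 4 rose and 0 fell: COX5B, described above, CYC7, the hypoxic cytochrome c (2.49 ± 0.41), and the mannoprotein genes TIR3 (1.72 ± 0.32) and TIR2 (1.12 ± 0.19).

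The silencing factors themselves gave few calls. SIR2 read 744.8 and 762.5 in the H4 tail deletion, against 809.2, 1060 and 888.2 in wild type (-0.28 ± 0.21), and SIR3 read 1154 and 1071 against 1066, 894.5 and 769.8 (0.30 ± 0.23). SIR1 and SIR4 had changes of 0.06 ± 0.29 and -0.59 ± 0.30, and none of these 4 genes was called. ABF1, a binding factor of silencers and many promoters, and ORC1, of the origin complex, were the 2 of 17 that were lower, and neither call held without every single array (adjusted p of up to 0.164 and 0.211). The genes for H3 and H4 share their probe sets and were not read singly. Of the 5 histone genes that could be read singly, HTB1 and HTB2 of H2B, HTZ1, HHO1 and CSE4, none was called, with changes from -0.66 to 0.08.

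Genes of the Rpd3 deacetylase complexes were lower in 3 of 14 cases, in 1 without H4 tail array 1 or 2 and in 6 without wild-type array 3. Among all genes 19% were lower, so this list is near that share. SAP30, a subunit of the large complex, read 418.7 and 489.5 in the H4 tail deletion, against 929.1, 1070 and 1032 in wild type (-1.16 ± 0.20; adjusted p = 0.000972). RPD3 read 519.1 and 493.6 against 1001, 959.2 and 689.7 (-0.78 ± 0.21), a call lost without H4 tail array 1 (adjusted p = 0.0577) or 2 (0.0869). Histone acetyltransferase genes were lower in 4 of 17 cases, and in 2 without H4 tail array 1 or 2. HAT2, which encodes a subunit of the type B enzyme that acetylates new H4, read 386.4 and 534.4 against 1317, 1249 and 1320 (-1.51 ± 0.22; adjusted p = 0.000305) and kept its call under all 18 settings. ELP3, the elongator catalytic subunit, fell by 1.09 ± 0.23.

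Sulfur and methionine genes were higher in 10 of 30 cases and lower in 1, with a median of 0.63. MET2, of homoserine activation, read 1009 and 1256 in the H4 tail deletion, against 204.3, 592.4 and 206.2 in wild type (1.95 ± 0.37), and MET3, the ATP sulfurylase gene, rose by 1.35 ± 0.24. Wild-type array 2 was the highest of its group for both. The count was 19 higher and 0 lower without that array, and 4 and 0 without H4 tail array 2.

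Amino acid synthesis genes were mixed, with 7 of 49 higher and 4 lower and a median of -0.04. Without H4 tail array 1 or 2, 4 were higher, and 8 were lower without wild-type array 3. LEU4, of leucine synthesis, rose by 1.13 ± 0.17 and ARO1, of the aromatic pathway, by 1.29 ± 0.19, while GDH1, a glutamate dehydrogenase gene, fell by 1.17 ± 0.20. Of 21 genes of arginine and nitrogen catabolism 5 were higher and 1 lower, with 2 higher without H4 tail array 2 and 3 without array 1 or wild-type array 1 or 3. UGA1, a transaminase of the GABA pathway, read 2709 and 2343 in the H4 tail deletion, against 388.9, 306.8 and 537.5 in wild type (2.65 ± 0.25; adjusted p = 1.81e-05). PUT1, the proline oxidase, read 3456 and 3616 against 353.7, 3133 and 256.4, and its call (adjusted p = 0.0321) was lost without H4 tail array 1 or 2 (0.128 and 0.149), wild-type array 1 (0.102) or array 3 (0.0895).

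In purine synthesis 2 of 18 were higher and 2 lower, and 4 were higher without H4 tail array 1 or wild-type array 2. ADE16 rose by 1.36 ± 0.19, and AAH1, an adenine deaminase gene, fell by 1.37 ± 0.30. Ergosterol genes were lower in 6 of 25 cases and higher in 0, with ERG5 at -1.33 ± 0.25 and HMG1, the rate-limiting reductase, at -1.21 ± 0.16. Phospholipid and inositol genes were higher in 4 and lower in 3 of 17, led by OPI3, a methyltransferase of phosphatidylcholine synthesis, at 2.11 ± 0.37. In this list 2 were higher without H4 tail array 1 or 2, and 1 to 5 were lower when 1 array was left out. Phosphate genes were lower in 2 of 17 cases and higher in 0, with 0 lower without H4 tail array 1 and 4 without wild-type array 3.

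Proteasome genes were lower in 5 of 32 cases and higher in 0, beside 19% of all genes lower. RPN4, their transcriptional activator, fell by 1.28 ± 0.30, but no gene of the list was called without H4 tail array 2 (adjusted p = 0.1 for RPN4), and 2 were called without wild-type array 2. Autophagy genes were higher in 7 of 22 cases, led by ATG33, a factor of mitochondrial autophagy, which read 2698 and 2552 in the H4 tail deletion, against 542.7, 249.8 and 742.1 in wild type (2.50 ± 0.35; adjusted p = 0.000238). The autophagy count was 4 without H4 tail array 1, array 2 or wild-type array 2. Of 19 chaperone genes 5 rose, led by SSA1, a cytosolic Hsp70 (1.45 ± 0.29), with 2 higher without H4 tail array 1 or 2 and 3 without wild-type array 1 or 2. Oxidative stress genes were higher in 10 of 20 cases and lower in 2. Without H4 tail array 2 they were higher in 6 and lower in 1, and with the sampling day in the fit in 1 and 0. SRX1, which repairs peroxiredoxins, rose by 2.32 ± 0.27.

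Early meiotic genes were higher in 4 of 21 tested cases and lower in 0, and in 2 and 0 without H4 tail array 1. RIM4, a regulator of meiotic translation, read 1326 and 820.1 in the H4 tail deletion, against 282.9, 125.7 and 302.3 in wild type (2.19 ± 0.38), and DMC1, the meiotic recombinase, rose by 1.23 ± 0.27. Middle sporulation genes were higher in 3 and lower in 1 of 19. SPS19, a peroxisomal reductase, rose by 2.02 ± 0.24. SSP1, of the prospore membrane, was at the floor on both mutant arrays, against 432.7, 543.1 and 396.1 in wild type, at least 3.23-fold lower.

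Of the cell cycle lists, that of MCM helicase and licensing genes had 5 of 9 lower (median -0.59), G1/S genes 3 of 29 lower and 1 higher, and G2/M genes 2 of 19 lower, beside 19% of all genes lower. Leaving out 1 array gave 0 to 5 lower G1/S genes and 0 to 4 lower G2/M genes. MCM6, a helicase subunit, was at least 1.99-fold lower, with both mutant arrays at the floor and no call without either of them (adjusted p = 0.0603 and 0.0656). No more than 1 of the 9 licensing genes was called when either H4 tail array was left out, so the single genes are not described further. Of 15 daughter-cell separation genes 3 were lower and 1 higher: CHS1, a chitin synthase, fell by 1.41 ± 0.30, SUN4, a cell wall protein, by 1.24 ± 0.23, and AMN1, a mitotic exit inhibitor, by 1.5 ± 0.46, while PIR3, a cell wall glycoprotein, rose by 2.71 ± 0.42. AMN1 read 477.1 and 1392 on the mutant arrays and was not called without H4 tail array 1 (adjusted p = 0.355) or wild-type array 1 or 3 (0.0639 and 0.0503).

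Of 15 DNA damage genes 2 were higher and 1 lower. HUG1, an inhibitor of ribonucleotide reductase that damage induces, read 11041 and 12440 in the H4 tail deletion, against 2477, 2975 and 2865 in wild type (2.08 ± 0.15; adjusted p = 1.72e-06). RNR3, the inducible reductase subunit, rose by 1.43 ± 0.33, a call that was lost without H4 tail array 1 (adjusted p = 0.0658).

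The H4 tail deletion was next set directly against the H4 lysine substitution, in which the 4 acetylatable lysines are replaced but the tail is present. The 2 H4 tail arrays are the same as above, so these comparisons are not independent of the one with wild type. In this comparison 285 of 7851 probe sets were higher in the H4 tail deletion (3.63%) and 143 lower (1.82%), and 234 genes were higher (4.3%) and 84 lower (1.54%). The median of all genes was 0.07. No sampling day or year was shared, and 69 probe sets were called with the year in the fit and 16 with the 4 arrays alone. Wild type was the only strain with arrays of both years. The year term in this and the following counts therefore rests on wild-type array 3, whose header named an amplification kit, against wild-type arrays 1 and 2.

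Several lists with many calls against wild type had few here. Ribosome biogenesis genes gave 0 higher and 1 lower of 96 (median -0.02), and stress genes 0 higher and 3 lower of 45 (-0.16). Pheromone response genes gave 2 higher and 0 lower of 25 (-0.09), and 2 higher and 4 lower after median centring (-0.16). PAU genes gave 0 higher and 1 lower of 10, but their changes ran from -0.84 to -0.08 (median -0.42), all under the all-gene median. RTC3, for example, read 4146 and 3451 in the H4 tail deletion and 385.2, 120.9 and 321.0 in wild type, while its difference from the lysine substitution was 0.55 ± 0.39 (adjusted p = 0.495). A p above the threshold does not show that the 2 H4 mutants were alike.

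The alpha-specific genes did separate these mutants, with 5 of 5 lower in the H4 tail deletion (median -2.73). Of these, 4 were called with the sampling year in the fit (median -2.56) and 2 with the 4 arrays alone. MF(ALPHA)1 read 700.1 and 602.8 in the H4 tail deletion, against 33900 and 27775 in the lysine substitution (-5.56 ± 0.31; adjusted p = 1.94e-07). FAR1 read 104.3 and 140.8 against 1569 and 1099 (-3.22 ± 0.29). HMRA1 read 974.8 and 462.2 against 273.9 and 308.7 (1.21 ± 0.25), a call lost without H4 tail array 1 (adjusted p = 0.0824) or either lysine substitution array (0.0991 and 0.066). Haploid-specific genes were lower in 4 of 11 cases here (median -0.75), and in 1 of 11 without H4 tail array 1 or 2.

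Mitochondrial and iron genes also differed between them in the main fit, but few list members stayed called in other settings. OLI1 read 2.7 on both arrays of the H4 tail deletion, against 20227 and 19944 in the lysine substitution, and COX1 read 923.5 and 755.2 against 7793 and 7622 (-3.21 ± 0.68), though COX1 was not called once any 1 of the 4 arrays was left out (adjusted p from 0.0795 to 0.104). Nuclear respiratory genes were lower in 21 of 45 cases and higher in 1 (median -0.93). This count was 4 lower and 0 higher with the sampling year in the fit (median -0.97), and 0 and 0 with the 4 arrays alone. COX4 read 2108 and 1285 in the H4 tail deletion, against 6613 and 6458 in the lysine substitution (-1.99 ± 0.33), and COX5A differed by -1.68 ± 0.27. Without H4 tail array 2 the respiratory count was 3 lower and 0 higher, and the COX4 difference had an adjusted p of 0.0554.

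Iron regulon genes were higher in 13 of 30 cases and lower in 0 (median 0.81). The number higher was 2 with the sampling year in the fit (median 0.28) and 0 with the 4 arrays alone. FIT2 had the largest rise of this comparison, with 7305 and 8279 in the H4 tail deletion, against 190.2 and 294.4 in the lysine substitution (5.04 ± 0.37; adjusted p = 4.05e-06). It read 2215, 1603 and 769.2 in wild type, so that the 2 H4 mutants lay on opposite sides of it. TIS11 was at least 5.87-fold higher than in the lysine substitution (adjusted p = 1.94e-07). FET3 and SIT1, a siderophore transporter gene, differed by 3.57 ± 0.71 and 2.77 ± 0.59 but were not called without H4 tail array 2 (adjusted p = 0.104 and 0.147) or either lysine substitution array (0.0581 to 0.104). Without that array 3 iron genes were called, and without the first or second lysine substitution array 4 and 5.

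Of the other largest differences, GCV3, a subunit of the glycine cleavage complex, read 13371 and 21266 in the H4 tail deletion, against 2254 and 2503 in the lysine substitution (2.83 ± 0.30; adjusted p = 0.000141). MPC3, a mitochondrial pyruvate carrier subunit, was at the floor in the lysine substitution and at least 6.36-fold higher in the H4 tail deletion. RME1 was 2.74 ± 0.50 lower on the log2 scale, with no call once any 1 array was left out (adjusted p from 0.0512 to 0.06). PDR15 read 2386 and 2563 against 614.3 and 661.9 (1.96 ± 0.28; adjusted p = 0.00174), and CIT2 4313 and 7815 against 1075 and 1405 (2.24 ± 0.49). The CIT2 call was lost without H4 tail array 2 (adjusted p = 0.151) or either lysine substitution array (0.118 and 0.0714).

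Against the H3 tail deletion, 206 probe sets were higher in the H4 tail deletion (2.62%) and 611 lower (7.78%), and 121 genes were higher (2.22%) and 553 lower (10.2%). The all-gene median was -0.23, but it was -0.01 after median centring, where 382 probe sets were higher and 306 lower. Differences are therefore given beside that shift, and list counts under both scalings. With the 4 arrays alone 0 probe sets were called, although 1954 had an unadjusted p under 0.05, and 87 were called when arrays with another strain in the header were dropped. Array 1 of each strain was sampled on the same day.

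Haploid-specific genes were lower in 10 of 11 cases under either scaling, with medians of -1.88 and, after median centring, -1.66. FUS3 and STE18 were at the floor on both H4 tail arrays, at least 4.98-fold and 5.71-fold lower, and STE4 differed by -1.88 ± 0.24. Alpha-specific genes were lower in 3 of 5 cases (medians -1.46 and -1.23). MF(ALPHA)1 read 700.1 and 602.8 in the H4 tail deletion, against 23318 and 16663 in the H3 tail deletion (-4.92 ± 0.31; adjusted p = 9.63e-07). MF(ALPHA)2 read 257.2 and 261.7 against 628.1 and 2267 (-2.2 ± 0.52), against 12061, 10551 and 17896 in wild type. This MF(ALPHA)2 call was lost without H4 tail array 1 or 2 (adjusted p = 0.0887 and 0.105) or H3 tail array 2 (0.186). HMRA1 was at the floor in the H3 tail deletion and at least 4.79-fold higher in the H4 tail deletion (adjusted p = 0.000423).

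OLI1 read 25771 and 18303 in the H3 tail deletion, at least 155-fold above the H4 tail deletion, and the gap was as large between the arrays of the shared day. Nuclear respiratory genes were lower in 25 of 45 cases in the H4 tail deletion (median -0.94), and in 15 after median centring (-0.71). Ribosome biogenesis genes were lower in 41 of 96 cases (-0.80), and in 15 after median centring (-0.57). Without H3 tail array 2 the ribosome biogenesis count was 2 and without H4 tail array 2 it was 11, while the respiratory count was 8 without either. PCK1 read 770.4 and 947.0 in the H4 tail deletion, against 8906 and 5990 in the H3 tail deletion (-3.10 ± 0.45; adjusted p = 0.00166). RME1 and RDH54 differed by -3.97 ± 0.50 and -2.52 ± 0.30.

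Among the rises against the H3 tail deletion, TIS11 was 2.37 ± 0.14 higher (adjusted p = 7.36e-07). NCA3, a protein linked to mitochondrial ATP synthase expression, read 2584 and 1996 in the H4 tail deletion, against 490.2 and 488.9 (2.21 ± 0.36; adjusted p = 0.00311), while in wild type it read 1305, 1821 and 2789. PDR15 differed by 1.86 ± 0.28 (adjusted p = 0.00197). COS8 differed by 0.82 ± 0.17, a call lost without H4 tail array 1 (adjusted p = 0.079) or H3 tail array 2 (0.0862). Of the other largest rises, YFL067W (2.47 ± 0.51), KCC4, a bud neck kinase gene (2.15 ± 0.44), and the 5S ribosomal RNA gene RDN5-3 (2.63 ± 0.69), were not called without H4 tail array 2 (adjusted p = 0.0758, 0.0906 and 0.273) or H3 tail array 2 (0.0979, 0.095 and 0.175). YFL067W also lost its call without H4 tail array 1 (0.0585), and RDN5-3 without H3 tail array 1 (0.0572). Stress genes gave 0 higher and 3 lower of 45, with a median of 0.06, but 1 higher and 0 lower after median centring (0.29). PAU genes gave 1 higher and 0 lower of 10 (0.50), and 4 higher and 0 lower after median centring (0.73). Pheromone response genes gave 1 higher and 0 lower of 25 under either scaling (-0.30, and -0.07 after median centring).

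**Figure D5:**
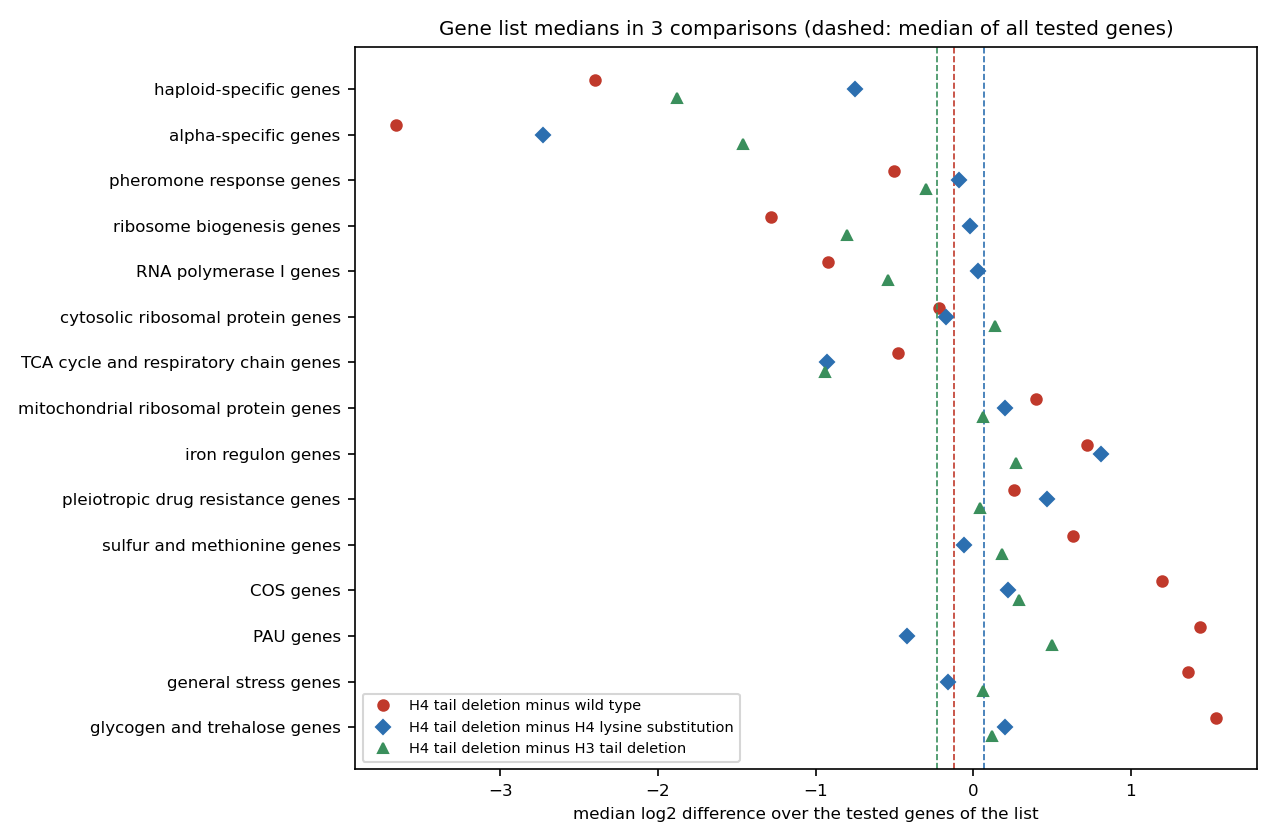
Median log2 difference of 15 gene lists for the H4 tail deletion minus wild type (circles), minus the H4 lysine substitution (diamonds) and minus the H3 tail deletion (triangles), all with the same 2 H4 tail arrays. Dashed lines are the medians of all genes (-0.12, 0.07 and -0.23). Stress and ribosome biogenesis genes lie far from the dashed line against wild type and close to it against the lysine substitution, and alpha-specific genes lie to the left in all 3.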

How the data were processed

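The deposited values are intensities in arbitrary linear units, 1 for each probe set and array, whose 2% trimmed means the authors had made nearly equal. The sources used here do not name the probe-level summary or its software. Chip lots and descriptions came from run settings, which are other values than measurements per the file headers, and served with the labelled sampling days as batches. Here each array was scaled to 1 shared 2% trimmed mean and floored at the 25th percentile of all signals (140.2). A probe set was tested if it passed the floor on 2 arrays or more, which held for 7851 of 9275, with 60 controls left out. limma 3.58.1 in R 4.3.3 fitted 18 arrays in 8 groups with a trended empirical Bayes variance (10 residual and 3.76 prior degrees of freedom), two-sided, with Benjamini-Hochberg adjustment per comparison. A gene is read from a probe set naming it alone, tested ones first, then those of the plainest kind, then the brightest; of 275 genes with more than 1, 93 had differing and 3 opposite calls.

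The members, the 44 gene lists and the rules were chosen with earlier results of these data known. Named genes were the 12 largest rises and falls against wild type and the 6 in each other comparison (called, arrays not overlapping, higher mean above 2 times the floor), up to 5 called genes per list in its main direction and 2 in the other, and defining members; a few others were named after their values were seen. The fit was tested on simulated data. Distance classes from chromosome ends were replaced by gene ranks in the R64 gene table, since the sources used here name no build for the files, and promoter sequences were not analysed here.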

Additional observations from a re-analysis of the deposited data

How the results depend on the processing

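The 2145 probe sets called against wild type became 217 with only the 2 groups compared, 403 with the sampling day as a block, 1067 with the chip lot as a block (which leaves out H4 tail array 1), and 1120 without arrays whose header names another strain. Leaving out 1 array gave 1111 to 2479. Against the H4 lysine substitution, 428 became 16, 246, 61 and 206 under the same 4 settings and 69 with the sampling year as a block, with 113 to 152 when 1 array was left out. Against the H3 tail deletion, 817 became 0, 305, 259 and 87, with 143 to 604 when 1 array was left out. Only the 2 groups compared means fewer degrees of freedom. With the sampling day, H4 tail array 2 and wild-type arrays 2 and 3 did not enter the contrasts, each being alone on its day. The day of the H4 lysine substitution arrays held 1 other strain, which had no array on another day. A day term could therefore not be estimated against that substitution. The setting instead compared H4 tail array 1 with both lysine substitution arrays, unadjusted for day. The cause of the other shifts was not tested. The split of calls moved with scaling: against the H3 tail deletion it was 206 higher and 611 lower, but 382 and 306 after median centring and 316 and 425 after quantile normalization, and against the H4 lysine substitution 285 and 143, but 283 and 249, and 281 and 225. Of 202 named genes called against wild type, 166 lost their call with only the 2 groups compared, 128 with the sampling day, 91 with the chip lot, 71 without the arrays whose header names another strain, 65 without H4 tail array 2 and 53 without array 1, and none reversed in any of the 18 settings. In every setting that tested them, 25 kept theirs, among them the 5 alpha-specific genes, OLI1, FAR1, PDR15, CIT2, HAT2, COS8 and RTC3. Same-numbered H4 tail and wild-type arrays deviated together with correlations of 0.13 and 0.02. The deviations of 2 arrays from their mean mirror each other, so these values cannot settle whether the replicate numbers pair the arrays. With the replicate block 2368, 443 and 978 probe sets were called in the 3 comparisons. Arrays at the floor give bounds only, and 2 mutant arrays limit every comparison.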

Other observations

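Among called genes held by no list, SPO75, a sporulation gene, read 1129 and 919.7 in the H4 tail deletion, against 38.0, 22.2 and 51.7 in wild type, all 3 at the floor (at least 7.27-fold higher; limma adjusted p = 3.32e-07). It read 230.1 and 209.0 in the H4 lysine substitution and 503.2 and 609.0 in the H3 tail deletion, so that the H4 tail arrays were the highest of these groups. DPI8, given here without a role, read 5199 and 11356 in the H4 tail deletion, against 588.7, 911.7 and 531.3 in wild type (3.55 ± 0.36). AIM17 read 1576 and 1474 against 130.8, 62.4 and 185.9 (3.31 ± 0.38), and SOL4, a lactonase of the pentose phosphate pathway, rose by 3.01 ± 0.38.

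GSP2, a Ran GTPase gene of nuclear transport, read 3005 and 4019 in the H4 tail deletion, against 830.0, 167.8 and 614.7 in wild type (2.98 ± 0.47). COX17, the copper chaperone of cytochrome oxidase, rose by 2.45 ± 0.26, and PET117, an assembly factor of the same enzyme, by 2.47 ± 0.35, in contrast to the falls of COX5A, COX4 and COX1. STF1, which stabilises the inhibitor of the ATP synthase, rose by 2.53 ± 0.43. ELP2, an elongator subunit gene, was at the floor on both H4 tail arrays (119.9 and 116.0), against 673.4, 880.8 and 410.2 in wild type, at least 4.45-fold lower (adjusted p = 0.000275). LRP1, a cofactor of the nuclear exosome, fell by 2.19 ± 0.33, and CIN2, of tubulin folding, by 2.16 ± 0.37.

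Probe sets with no gene symbol split unlike those that name 1 gene. Of 1462 tested, 180 were higher in the H4 tail deletion (12.3%) and 66 lower (4.51%), against 736 (12.1%) and 1091 (17.9%) of 6080 that name 1 gene. The filter passed 1462 of 2443 probe sets with no symbol and 6080 of 6504 that name 1 gene. The floor limits how far a dim probe set can fall, and whether signal level accounts for the split was not tested.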
